A study of Mus musculus with 24 samples.

Results

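The expression of 10 genes of cellular fat storage was followed through the circadian cycle of the mouse liver. They comprise 3 perilipins that coat lipid droplets (Plin2, Plin4 and Plin5), 2 droplet fusion proteins (Cidec and Cideb), a lipase inhibitor (G0s2) and 4 genes of the lipase families (Pnpla2, Pnpla3, Lipe and Mgll). Members were taken by gene symbol in the platform annotation, which gave all 10 genes, with 1 probe set each, out of 19935 genes tested. The livers came from adult male C57BL/6 mice of the supplier Harlan-Olac. The mice had first been entrained to light alternating with dim red light, which then stayed on without a break. Livers were taken every 3 h on the second cycle of constant conditions, which gave 8 circadian times (CT00 to CT21) with 3 arrays each, 24 in all, and no other genotype or treatment. The series text speaks instead of constant darkness, with food always available, and of 4 time points. The grouping here follows the sample labels. By convention, the hours from CT00 to CT12 form the subjective day, in which mice mostly rest, and the later hours the subjective night, in which they move and feed.

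Each value is a log2 value relative to the median of its own gene over the 24 arrays, on the assumption that the deposited logarithm has base 2. A value of 0 is therefore the middle of a gene's own range, and levels of different genes cannot be compared. Values of all probe sets ran from -2.62 to 2.64, and the interquartile range of an array from 0.0992 to 0.2. Rounding steps left in the values show only whether a probe set was bright (log2 intensity from 8 to 16) or dimmer (from 4 to 8). Of 28815 probe sets, 4007 were in the brighter class. Among the 10 genes, Plin2, Cideb, G0s2 and Mgll were in it, and the other six were in the dimmer class. All 9 hepatocyte markers tested were in the brighter class, against 1 of 8 adipocyte markers (Car3). RNA of whole liver was measured, so fewer cells of a type and less RNA per cell cannot be told apart.

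Lipid droplets hold triglyceride and cholesteryl ester under a single layer of phospholipid, and perilipins on that surface limit the access of lipases. Triglyceride is broken down in steps: adipose triglyceride lipase (the product of Pnpla2) releases the first fatty acid, hormone-sensitive lipase (Lipe) acts on diacylglycerol, and monoacylglycerol lipase (Mgll) on monoacylglycerol. G0S2 binds and inhibits adipose triglyceride lipase, whereas ABHD5 activates it. In the liver, fatty acids released in this way are oxidised, supply very low density lipoprotein and serve as ligands of the nuclear receptor PPAR alpha.

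The promoters of the members were searched because core clock factors and nuclear receptors read short DNA motifs. RefSeq (build GRCm38.p6) gave 14 promoter windows for the 10 genes, and the 250 bases before each start were searched on both strands. The motifs were the E-box CACGTG, which CLOCK and BMAL1 bind, a variant E-box CACGTT, the nuclear receptor core AGGTCA, which REV-ERB and ROR factors read as a single copy, a direct repeat of that core with 1 base between, as PPAR alpha binds with its partner RXR, and the core TTANNTAA of the D-box. Any of them occurred in 4 of the 10 genes: an E-box in 2, the variant E-box in 1 and the receptor core in 2. The share of all windows with any of them was not computed, so the count of 4 has no background. Shares of the single motifs, given below, are per window, and some genes had more than 1 window. The stretches shown are those with an E-box or a receptor core, in lower case with the motif in capitals, each read 5′ to 3′ on the strand of its gene:
Plin2: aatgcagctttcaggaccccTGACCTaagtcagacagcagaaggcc
Plin5: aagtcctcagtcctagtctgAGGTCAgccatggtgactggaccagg
Lipe: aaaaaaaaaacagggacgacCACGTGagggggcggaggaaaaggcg
Mgll: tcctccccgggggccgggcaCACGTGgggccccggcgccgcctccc
The Plin2 stretch lies at chr4:86670252-86670297 on the minus strand, with the receptor core on the opposite strand 218 to 213 bases before the start. The Plin5 stretch lies at chr17:56117693-56117738 on the minus strand, with the core 170 to 165 bases before the start. The Lipe stretch lies at chr7:25396117-25396162 on the minus strand, before a transcript start inside the span of the gene, with the E-box 155 to 150 bases upstream. The Mgll stretch lies at chr6:88724348-88724393 on the plus strand, with the E-box 44 to 39 bases upstream. A second Mgll window held the variant E-box. Over all 32851 windows, an E-box occurred in 6.02%, the variant in 3.85%, the receptor core in 14.0%, the direct repeat in 0.0335% and the D-box core in 5.43%. Neither the direct repeat nor the D-box core occurred in any window of the members (0 of 14). A match describes the letters only.

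The first comparison asked which of these transcripts followed a 24 h wave in constant conditions. A cosine and a sine of that period were fitted to each gene over all 24 arrays in limma, and the moderated F was adjusted by Benjamini-Hochberg over the 19935 genes at a threshold of 0.05. Of the 10 genes, 6 passed: Plin2, Plin5, Cideb, Pnpla2, Pnpla3 and Mgll. The background was 13.8% of all genes (2758). It was higher among bright genes: when the 2609 genes of the brighter class were tested alone, 41.4% passed, and 3 of the 4 members in it. The fitted peak-to-trough fold had a median of 1.36 over the 10 genes and 1.07 over all genes. Among genes that passed, it was 1.42 for the members and 1.26 overall. Peaks of the 6 fell in the subjective day for 3 (Plin2, Cideb and Pnpla2) and in the night for 3 (Mgll, Plin5 and Pnpla3). The test that allows any course over the 8 times passed 6 members too, with Lipe in place of Cideb, against 10.9% of all genes, and 5 members passed both tests. Plin4, Cidec and G0s2 passed neither. In all 10 genes the highest and the lowest group of 3 arrays did not overlap, which was also so in 63.1% of all genes.

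**Figure D1:**
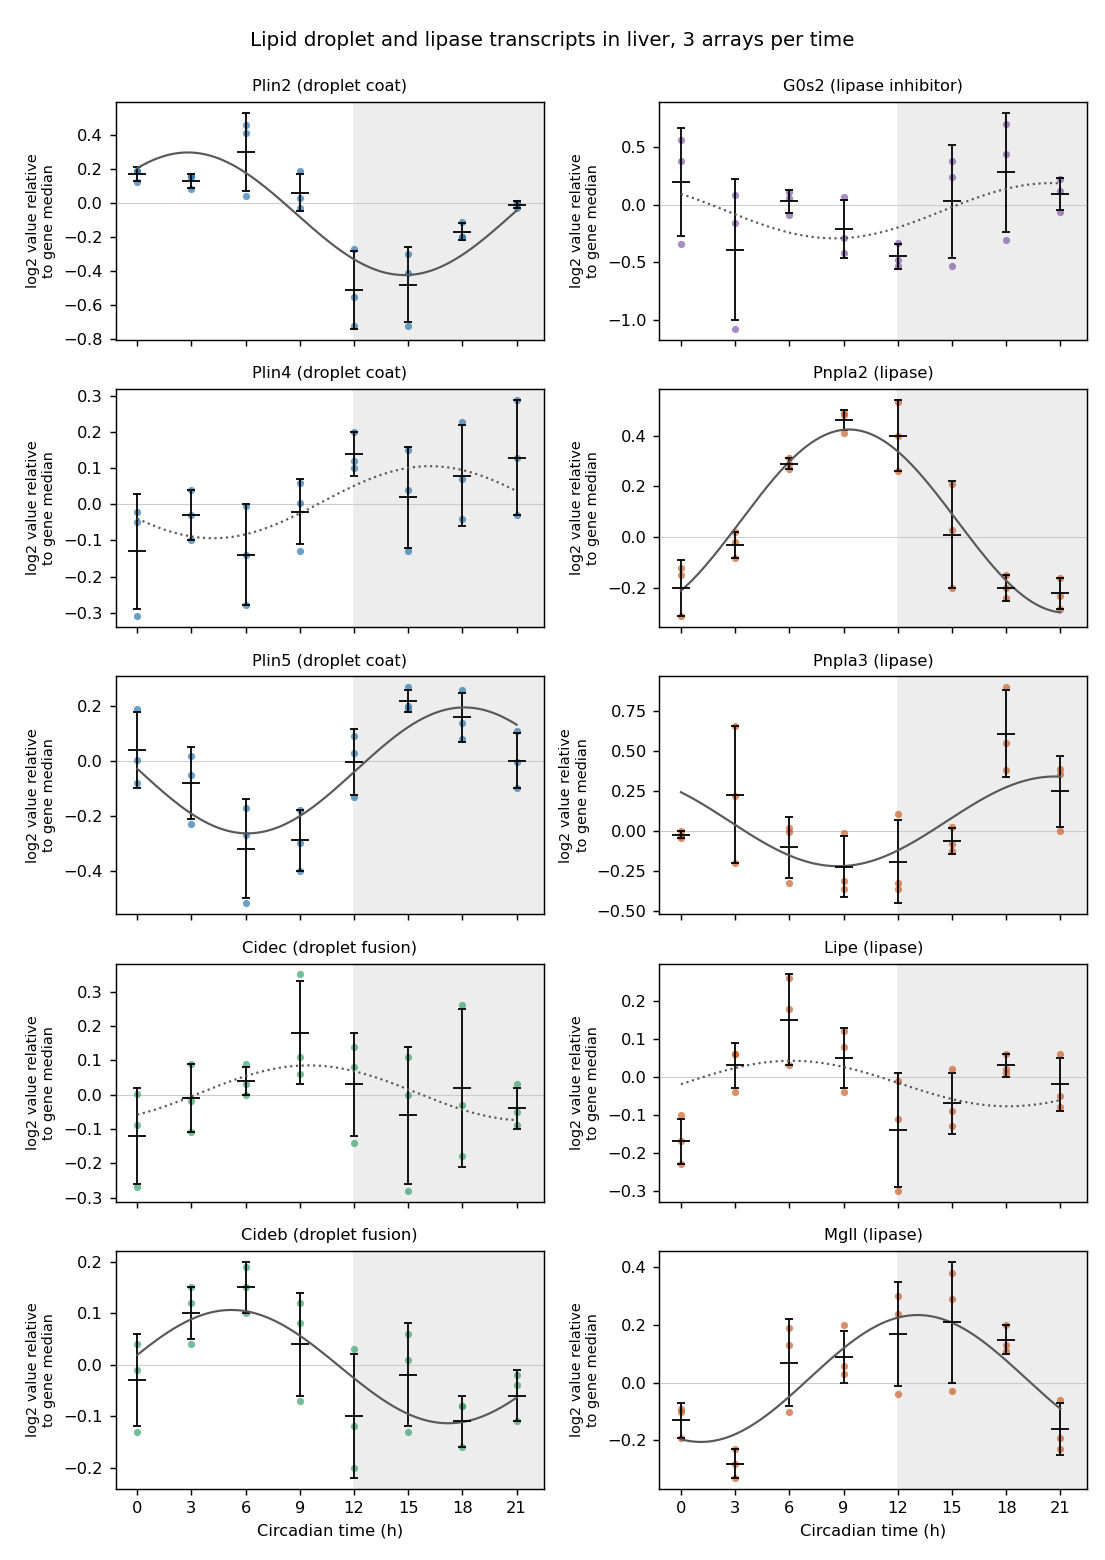
Log2 value relative to the gene's median (vertical axis) against circadian time in hours (horizontal axis) for the 10 genes; points are arrays, black bars the mean ± SD of 3 arrays, grey marks the subjective night, and curves are 24 h fits (solid where called, dotted where not). Pnpla2 runs from a mean of 0.46 at CT09 to -0.22 at CT21, while the 3 arrays of G0s2 at one time spread widely.

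Plin2, the main perilipin of hepatocyte droplets, was highest through the subjective day and lowest at its end. In the day the 3 arrays read 0.12, 0.19 and 0.19 at CT00, 0.16, 0.15 and 0.08 at CT03, 0.04, 0.41 and 0.46 at CT06, and -0.03, 0.19 and 0.03 at CT09. They read -0.72, -0.55 and -0.27 at CT12, -0.72, -0.3 and -0.41 at CT15, -0.2, -0.11 and -0.2 at CT18, and 0.0005, -0.0005 and -0.03 at CT21. All arrays of CT12 and CT15 lay below every array of CT00, CT03, CT06 and CT09. The mean went from 0.06 ± 0.11 (SD, n = 3) at CT09 to -0.51 ± 0.23 at CT12, then returned over the night. The fitted wave had an amplitude (log2, middle to peak) of 0.36 ± 0.05 (SE), a peak at 2.8 ± 0.54 h and a fold of 1.64 (limma adjusted p = 5.05e-05), rank 270 by amplitude among all genes.

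Plin5 was lowest at CT06 and CT09 and highest at CT15 and CT18. Its means at CT00 (0.04), CT12 (-0.003) and CT21 (0.0011) lay between these. This perilipin of oxidative tissues tethers droplets to mitochondria and binds both adipose triglyceride lipase and ABHD5. Its arrays read 0.19, 0.0038 and -0.08 at CT00, 0.02, -0.23 and -0.05 at CT03, -0.27, -0.17 and -0.52 at CT06, and -0.3, -0.18 and -0.4 at CT09. In the night they read -0.13, 0.03 and 0.09 at CT12, 0.2, 0.19 and 0.27 at CT15, 0.14, 0.26 and 0.08 at CT18, and 0.11, -0.1 and -0.0038 at CT21. Every array of CT15 and CT18 lay above every array of CT03, CT06 and CT09. The wave had an amplitude of 0.23 ± 0.04 (SE), a peak at 18.1 ± 0.65 h and a fold of 1.37 (limma adjusted p = 0.000483). Plin4, a perilipin best known from adipocytes, whose gene neighbours Plin5, did not pass (fold 1.15, limma adjusted p = 0.148). Its means lay between -0.14 ± 0.14 (SD, n = 3) at CT06 and 0.14 ± 0.06 at CT12, and CT12 lay wholly above 4 other groups.

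The fusion proteins let lipid pass between touching droplets. Cideb, the hepatocyte form, which also takes part in loading lipoprotein particles, read 0.1, 0.15 and 0.19 at CT06, its highest group, and -0.16, -0.08 and -0.08 at CT18, its lowest. CT06 lay wholly above 5 other groups, although the means were only 0.25 apart. The wave was shallow, with an amplitude of 0.11 ± 0.02 (SE), a peak at 5.21 ± 0.89 h and a fold of 1.16 (limma adjusted p = 0.0111). The call was lost when a whole time was left out at CT03 (limma adjusted p = 0.0652), CT06 (0.141) or CT18 (0.0654), in a range over all alternatives from 0.00299 to 0.141. Cidec, the form of adipocytes and fatty liver, had means from -0.12 ± 0.14 (SD, n = 3) at CT00 to 0.18 ± 0.15 at CT09 and did not pass (fold 1.12, limma adjusted p = 0.352).

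G0s2, the inhibitor of adipose triglyceride lipase, varied more among the arrays of one time than the other nine genes. Its arrays read 0.56, 0.38 and -0.34 at CT00, -0.16, 0.08 and -1.08 at CT03, 0.11, 0.06 and -0.09 at CT06, and 0.07, -0.42 and -0.29 at CT09. They read -0.48, -0.33 and -0.53 at CT12, 0.24, 0.38 and -0.53 at CT15, 0.44, 0.7 and -0.31 at CT18, and 0.22, -0.06 and 0.12 at CT21. The groups overlapped widely, and CT18 lay wholly above only 1 other group. The SD within a time was 0.39, against 0.08 to 0.24 in the other nine genes. The fitted wave of 0.24 ± 0.1 (SE), with a peak at 20.5 ± 1.68 h, ranked 696 by amplitude but did not pass (fold 1.39, limma adjusted p = 0.322).

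Pnpla2, which encodes the lipase of the first step, had the smallest p of the 10 genes. It rose through the day: its arrays read -0.31, -0.15 and -0.12 at CT00, 0.02, -0.08 and -0.02 at CT03, 0.27, 0.31 and 0.29 at CT06, and 0.49, 0.41 and 0.48 at CT09. They read 0.4, 0.26 and 0.53 at CT12, 0.21, -0.2 and 0.03 at CT15, -0.2, -0.15 and -0.24 at CT18, and -0.16, -0.23 and -0.28 at CT21. Every array of CT06, CT09 and CT12 lay above every other array. The amplitude was 0.36 ± 0.03 (SE), the peak 9.3 ± 0.31 h and the fold 1.65 (limma adjusted p = 1.24e-08), rank 254 by amplitude.

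Pnpla3 encodes a droplet protein related to that lipase, which is induced by feeding and carbohydrate. Its arrays read -0.03, -0.04 and 0.0028 at CT00, 0.66, 0.22 and -0.2 at CT03, -0.0024, 0.02 and -0.32 at CT06, and -0.36, -0.01 and -0.31 at CT09. They read -0.36, 0.11 and -0.32 at CT12, 0.03, -0.08 and -0.12 at CT15, 0.38, 0.55 and 0.9 at CT18, and 0.0024, 0.39 and 0.36 at CT21. The CT18 arrays stood above those of 5 other groups, and the CT03 arrays were spread over most of the range. The wave had an amplitude of 0.28 ± 0.08 (SE), a peak at 20.7 ± 1.05 h and a fold of 1.47 (limma adjusted p = 0.0378). This call was the least stable of the 6. It was lost under 18 of 41 alternatives, with limma adjusted p from 0.0109 to 0.133 over all of them.

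Leaving out any one of 10 arrays ended the Pnpla3 call in the 24 h fit. The limma adjusted p was 0.0662 without CT06 replicate 3, 0.0759 and 0.075 without CT09 replicates 1 and 3, and 0.0641 and 0.0638 without CT12 replicates 1 and 3. It was 0.0623, 0.0726 and 0.0569 without CT18 replicates 1, 2 and 3, and 0.0688 and 0.0629 without CT21 replicates 2 and 3. In the test of the 8 times (adjusted p = 0.0231 by limma) the call was lost without CT18 replicate 2 (0.0544) or replicate 3 (0.0785), without moderation (0.0788), without the time CT18 (0.223) and without the 4 arrays of widest spread (0.106).

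Lipe encodes the hormone-sensitive lipase that acts on diacylglycerol and cholesteryl ester. It had no 24 h wave that passed (fold 1.09, limma adjusted p = 0.521), but a 12 h component was called. Its arrays read -0.23, -0.17 and -0.1 at CT00, 0.06, -0.04 and 0.06 at CT03, 0.03, 0.18 and 0.26 at CT06, and 0.08, 0.12 and -0.04 at CT09. They read -0.11, -0.3 and -0.01 at CT12, -0.13, -0.09 and 0.02 at CT15, 0.02, 0.01 and 0.06 at CT18, and 0.06, -0.05 and -0.08 at CT21. Values were low at CT00 and CT12 and higher between these times. The mean was 0.15 at CT06 but only 0.03 at CT18, as at CT03. A 12 h component added to the 24 h terms had an amplitude of 0.12 ± 0.02 (SE), peaks at 6.28 and 18.3 h and a fold of 1.19 (limma adjusted p = 0.0381). Lipe was the 1 member called there, against 0.577% of all genes (115), and it passed the test of the 8 times (limma adjusted p = 0.0428).

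Both Lipe calls lay close to the threshold. Without any one of 15 arrays the 12 h call was lost, with limma adjusted p from 0.0219 to 0.078 over the 24 ways of leaving out 1 array. These were all CT00 replicates (0.078, 0.0772 and 0.0584), CT03 replicate 2 (0.0526), CT06 replicates 2 and 3 (0.0701 and 0.0579), CT09 replicates 1 and 2 (0.0538 and 0.0527), and CT12 replicates 1 and 2 (0.0539 and 0.0646). The others were CT15 replicate 2 (0.07), CT18 replicates 1 and 3 (0.0594 and 0.0534), and CT21 replicates 2 and 3 (0.0574 and 0.0625). The call over the 8 times was also lost without any one of 15 arrays. They were CT00 replicates 1 and 2 (limma adjusted p = 0.0962 and 0.0897), CT03 replicates 1 and 3 (0.0637 and 0.0612), CT06 replicates 2 and 3 (0.0993 and 0.105), CT09 replicates 1 and 2 (0.065 and 0.0609) and CT12 replicate 1 (0.0684). The rest were CT15 replicate 2 (0.0574), all CT18 replicates (0.0592, 0.0547 and 0.0521), and CT21 replicates 2 and 3 (0.0603 and 0.0535). It was lost as well with array medians centred (limma adjusted p = 0.0531), without moderation (0.0717), without the times CT00 (0.14), CT03 (0.0555), CT06 (0.144) or CT18 (0.0524) and without the 4 arrays of widest spread (0.123), in all under 22 of 40 alternatives. The 12 h call was lost under 24 of 40, among them no moderation (limma adjusted p = 0.0636).

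Mgll, whose enzyme releases the last fatty acid and also degrades the endocannabinoid 2-arachidonoylglycerol, was lowest early in the day and higher from CT06 to CT18. Its arrays read -0.19, -0.1 and -0.09 at CT00, -0.28, -0.23 and -0.33 at CT03, -0.1, 0.19 and 0.13 at CT06, and 0.03, 0.06 and 0.2 at CT09. They read -0.04, 0.3 and 0.24 at CT12, -0.03, 0.29 and 0.38 at CT15, 0.13, 0.11 and 0.2 at CT18, and -0.06, -0.23 and -0.19 at CT21. The CT03 group lay wholly below the 7 other groups, with a mean of -0.28 ± 0.05 (SD, n = 3). The wave had an amplitude of 0.22 ± 0.04 (SE), a peak at 13.1 ± 0.66 h and a fold of 1.35 (limma adjusted p = 0.000614).

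**Figure D2:**
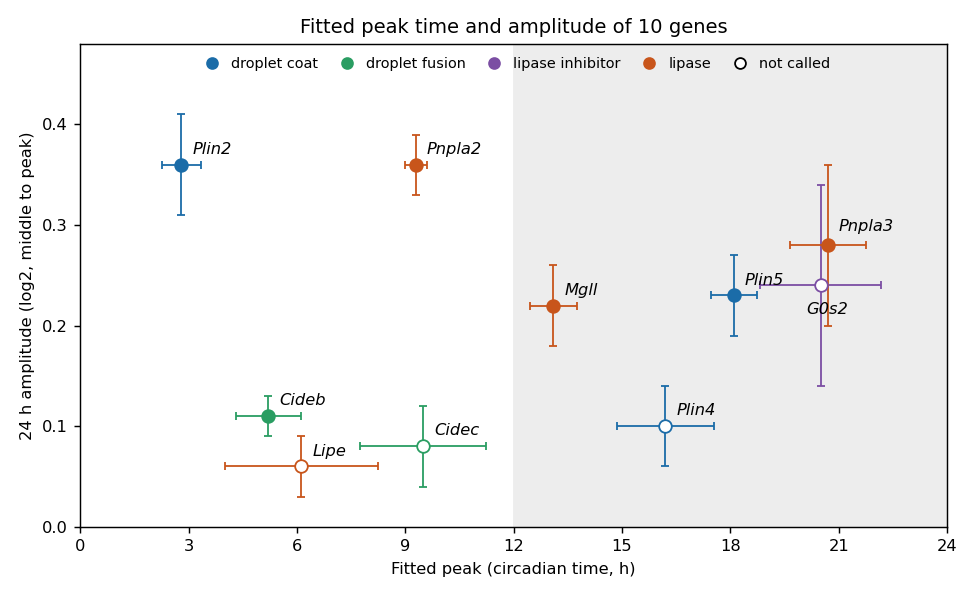
Fitted peak time in hours of circadian time (horizontal axis) against 24 h amplitude in log2 units (vertical axis), each with its SE; filled points passed the 24 h test and open points did not. The called genes peak in the order Plin2, Cideb, Pnpla2, Mgll, Plin5 and Pnpla3, from 2.8 to 20.7 h, and G0s2 has a wide error in both directions.

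The calls for Plin2, Plin5, Pnpla2 and Mgll in the 24 h fit held under all alternatives tried, with limma adjusted p of at most 0.00111, 0.00888, 2.63e-06 and 0.0155. In order of fitted peak the 6 called genes ran from Plin2 and Cideb through Pnpla2 and Mgll to Plin5 and Pnpla3. The peaks of Plin2 and Cideb, and those of Plin5 and Pnpla3, lay less than 3 h apart, close to the sampling step, and their difference was not tested.

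Times 12 h apart were then compared without a wave model, as the difference of the group means in log2 units. At CT12 against CT00, 1 member was higher and 1 lower, against 1.79% and 1.67% of all genes (3.46% in either direction). Pnpla2 was higher by 0.59 ± 0.08 (SE), from -0.2 to 0.4 (limma adjusted p = 9.39e-05), and Plin2 lower, with a difference of -0.68 ± 0.11 (limma adjusted p = 0.000671). At CT15 against CT03, Mgll was higher by 0.5 ± 0.1 (limma adjusted p = 0.00341) and Plin2 lower, with -0.6 ± 0.11 (limma adjusted p = 0.00232), against a background of 2.68% higher and 1.8% lower (4.48% in either direction).

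The comparison of CT18 with CT06, the middle of the night with the middle of the day, held the most members. Of the 10, 2 were higher and 3 lower, against 1.43% and 3.21% of all genes (4.64% in either direction). Plin5 was higher by 0.48 ± 0.09 (SE, limma adjusted p = 0.00417) and Pnpla3 by 0.71 ± 0.18 (limma adjusted p = 0.0225). Pnpla2 was lower, with -0.49 ± 0.08 (limma adjusted p = 0.00112), as were Plin2, with -0.47 ± 0.11 (limma adjusted p = 0.0161), and Cideb, with -0.25 ± 0.07 (limma adjusted p = 0.0308). At CT21 against CT09, Pnpla2 alone was called, with -0.68 ± 0.08 (limma adjusted p = 1.97e-05), against 2.0% lower and 1.56% higher among all genes (3.56% in either direction). Together 6 genes gave 10 calls in the 4 contrasts, and Plin4, Cidec, G0s2 and Lipe gave none in limma, although 3 of their 16 differences had an unadjusted p under 0.05.

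Several contrast calls rested on single arrays. For Plin2 the CT18 call was lost without CT06 replicate 2 (limma adjusted p = 0.0767) or 3 (0.105) or CT18 replicate 1 (0.0567), in a range from 0.00374 to 0.105. For Pnpla3 it was lost without CT06 replicate 3 (0.128), CT18 replicate 2 (0.0589) or 3 (0.0944), in a range from 0.00987 to 0.128 when 1 array was left out. It was lost as well with array weights (limma adjusted p = 0.0603), without moderation (0.0573) and without the 4 arrays of widest spread (0.0686). For Cideb it was lost without CT06 replicate 2 (0.0814) or 3 (0.133) or any CT18 array (0.118, 0.0671 and 0.0507), in a range from 0.0215 to 0.133. Calls were gained for Plin5 at CT15 against CT03 without CT06 replicate 3 (limma adjusted p = 0.0401, against 0.0714 with all arrays). They were also gained for Mgll at CT12 against CT00 without CT12 replicate 1 (0.0322, against 0.127), after quantile normalisation (0.047) and with array weights (0.0115). Array weights also gave calls to Plin5 at CT15 against CT03 (limma adjusted p = 0.026) and to Pnpla3 at CT21 against CT09 (0.0486). Over the 8 times, Cideb (0.0623 with all arrays) passed without CT09 replicate 2 (0.0394), CT12 replicate 3 (0.0294) or CT15 replicate 1 (0.0411).

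**Figure D3:**
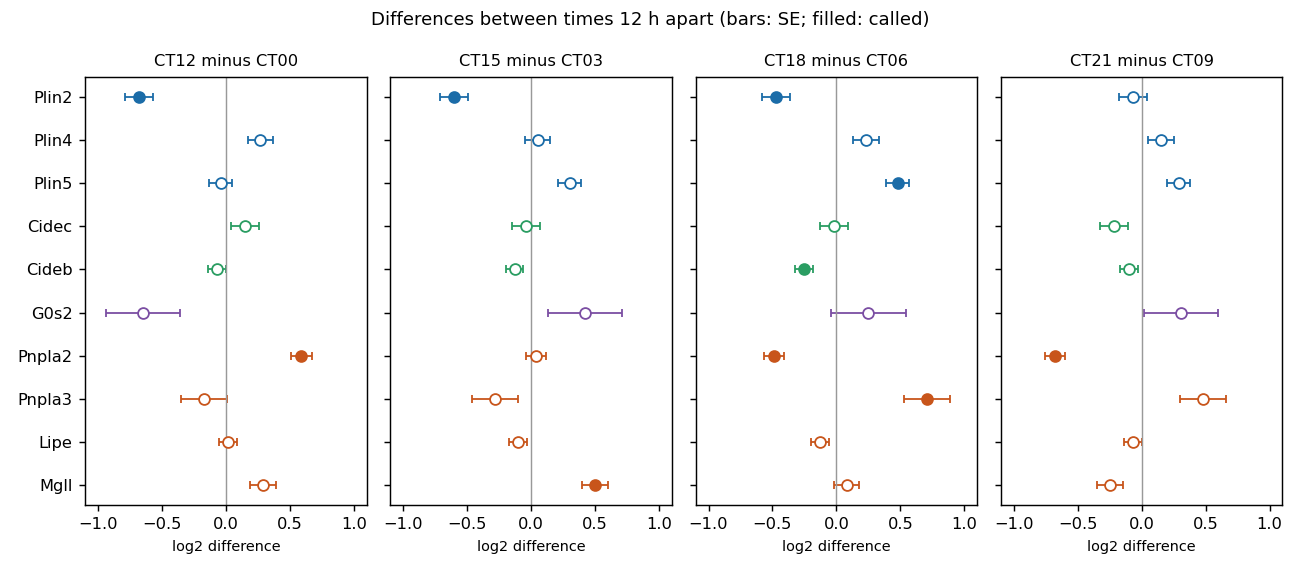
Difference between group means 12 h apart in log2 units with its SE, for the 10 genes in 4 contrasts of 3 arrays against 3; filled points passed the test. Pnpla2 changes side, from 0.59 at CT12 against CT00 to -0.68 at CT21 against CT09. Plin2 lies below 0 in every contrast, but at CT21 against CT09 by less than its SE (-0.07 ± 0.11, not called).

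Genes with opposed or related roles were set against each other within each array, which asks whether their ratio follows a 24 h wave. The difference of log2 values was tested in 6 pairs by a two-sided permutation test over the 24 arrays with 100000 resamples, and p was adjusted over the 6. In 5 of the 6 the ratio had such a wave. Each of the 6 pairs holds a gene that passed the 24 h test alone. A wave in the ratio therefore does not show that both genes take part, and no share over other gene pairs was computed. Lipase over inhibitor, Pnpla2 minus G0s2, averaged -0.39 ± 0.56 (SD, n = 3) at CT00, 0.36 ± 0.63 at CT03, 0.26 ± 0.11 at CT06 and 0.67 ± 0.22 at CT09. It averaged 0.84 ± 0.24 at CT12, -0.01 ± 0.57 at CT15, -0.47 ± 0.48 at CT18 and -0.32 ± 0.12 at CT21. All 3 arrays of CT06, CT09 and CT12 were above 0, and all 3 of CT21 below. The ratio changed 2.29-fold from trough to peak, with its peak at 8.96 h (permutation adjusted p = 0.000705). The amplitude of the difference was 0.6, against 0.36 for Pnpla2 alone and 0.24 for G0s2, whose own wave did not pass.

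Plin2 minus Plin5 averaged 0.13 ± 0.18 (SD, n = 3) at CT00, 0.21 ± 0.14 at CT03, 0.62 ± 0.34 at CT06 and 0.36 ± 0.08 at CT09. It averaged -0.51 ± 0.13 at CT12, -0.7 ± 0.22 at CT15, -0.33 ± 0.04 at CT18 and -0.01 ± 0.1 at CT21. The groups of CT12, CT15 and CT18 lay wholly below those of the 4 day times. The ratio of the 2 coats changed 2.08-fold and peaked at 4.07 h (permutation adjusted p = 6e-05), and the fitted peaks lay 8.66 ± 0.803 h (SE) apart.

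The ratio of the 2 related lipase genes, Pnpla2 to Pnpla3, changed 2.41-fold with its peak at 9.02 h (permutation p = 1e-05, the smallest these resamples can give; adjusted p = 6e-05), and their own peaks were 11.4 ± 1.1 h (SE) apart. Lipe over Mgll, successive enzymes of the breakdown, changed 1.39-fold with its peak at 2.07 h (permutation adjusted p = 0.00028). The amplitude of this difference was 0.24, against 0.22 for Mgll alone and 0.06 for Lipe, whose own 24 h wave did not pass. Plin4 over Plin5 changed 1.22-fold (permutation adjusted p = 0.0272). This call was lost without CT06 replicate 3 (permutation adjusted p = 0.0511), CT09 replicate 1 (0.0579) or CT09 replicate 3 (0.0539). Cidec over Cideb changed 1.15-fold and did not pass (permutation adjusted p = 0.126), although it did without CT15 replicate 2 (0.0066).

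**Figure D4:**
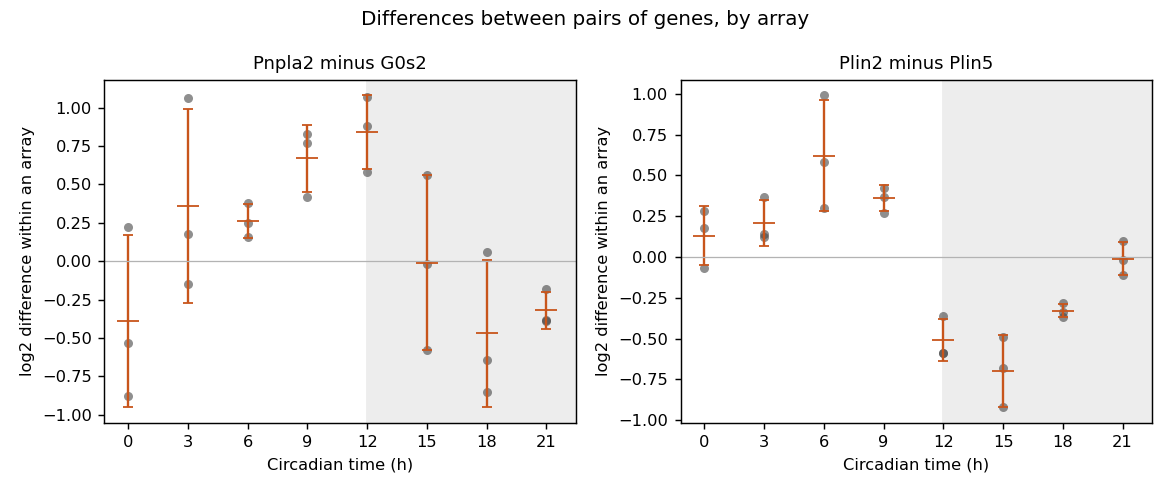
Difference of log2 values within each array, Pnpla2 minus G0s2 and Plin2 minus Plin5 (vertical axis), against circadian time in hours (horizontal axis). Dark points are the 24 arrays and orange bars the mean ± SD of 3. Pnpla2 minus G0s2 is highest at CT12 with a mean of 0.84, and Plin2 minus Plin5 lowest at CT15 with -0.7.

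Whether members varied together between livers of the same time was asked with the deviations from the group means. Among 55 relations (45 pairs of members, and each member with the mean of a list of PPAR alpha targets), 0 passed after adjustment by permutation within times, and 3 had an unadjusted permutation p of Pearson's r under 0.05. Plin4 and Plin5 gave r = 0.59 and rho = 0.58 (permutation p = 0.0131, adjusted 0.36), with r = 0.6 without the 2 arrays farthest from the median. Without CT21 replicate 1, r was 0.79 and this relation passed (permutation adjusted p = 0.0148). Plin2 and Mgll gave r = 0.71 and rho = 0.59 (permutation p = 0.0328, adjusted 0.514), with r = 0.54 without the 2 farthest arrays. G0s2 and Lipe gave r = -0.44 and rho = -0.51 (permutation p = 0.00697, adjusted 0.36), with r = -0.46 without the 2 farthest. With the replicate number as a block, this relation weakened to r = -0.27 (permutation p = 0.295, adjusted 0.644). The block left r = 0.56 for Plin4 and Plin5 (permutation p = 0.0124, adjusted 0.254). For Plin2 and Mgll it also left r = 0.56 (permutation p = 0.0379, adjusted 0.254).

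The other genes of the pathway were read from 5 lists, none of which holds a member. Of 16 further droplet proteins tested, 2 passed the 24 h test (12.5%), and the median fold was 1.09. This was near the 13.8% of all genes and below the 41.4% of the brighter class, which held 9 of the 16. Here and in the lists below, the 41.4% comes from p adjusted over the 2609 genes of that class alone. That cutoff is looser than the one over all 19935 genes used for the lists, so these shares are not directly comparable. Fitm2, which sorts newly made triglyceride into droplets, changed 1.26-fold with a peak at 14.3 h (limma adjusted p = 0.000284), and Pcyt1a, the regulated enzyme of phosphatidylcholine synthesis, 1.16-fold at 13.9 h (limma adjusted p = 0.0268). The perilipins Plin1 (fold 1.08, limma adjusted p = 0.588) and Plin3 (fold 1.21, limma adjusted p = 0.0654) did not pass, and neither did the droplet enzyme Hsd17b13 (fold 1.1, limma adjusted p = 0.304). Plin3 passed the test of the 8 times (limma adjusted p = 0.036), with its highest mean of 0.27 ± 0.07 (SD, n = 3) at CT03 and its lowest of -0.17 ± 0.16 at CT12, the time at which Plin2 was lowest.

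Among 22 further lipases and cofactors, 11 passed the 24 h test (50.0%), 4 with a peak in the day and 7 in the night, and the median fold was 1.19. The background was 13.8% of all genes and 41.4% of the brighter class, which held 12 of the 22. Abhd5, the activator of adipose triglyceride lipase, changed 1.3-fold with a peak at 20.7 ± 0.83 h (SE, limma adjusted p = 0.00636), whereas Pnpla2 peaked at 9.3 h. Endothelial lipase, Lipg, changed 2.08-fold at 10.9 h (limma adjusted p = 3.85e-08). The phospholipase Ddhd2 changed 1.73-fold at 12.1 h (limma adjusted p = 4.4e-07), and the monoacylglycerol hydrolase Abhd6 1.62-fold at 15.5 h (limma adjusted p = 5.97e-05).

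On the synthesis side, 8 of 14 genes of triglyceride and sterol ester formation passed (57.1%), 2 with a day peak and 6 with a night peak, with a median fold of 1.18. Against this stood 13.8% of all genes and 41.4% of the brighter class, which held 6 of the 14. The acyltransferase Agpat2 changed 1.54-fold with its peak at 22.2 h (limma adjusted p = 3.61e-05). The phosphatidate phosphatases Lpin1 and Lpin2 changed 3.54-fold at 12.5 h (limma adjusted p = 1.28e-05) and 1.88-fold at 10.6 h (limma adjusted p = 0.000188). Dgat2, which makes triglyceride from diacylglycerol, changed 1.18-fold at 12.3 h (limma adjusted p = 0.00618).

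Of 18 regulators tested, 10 passed (55.6%), 5 with peaks in each part of the cycle, with a median fold of 1.23. The background was 13.8% of all genes and 41.4% of the brighter class, which held 9 of the 18. Ppara, the nuclear receptor that has Plin2 among its known targets, peaked at 9.86 ± 0.36 h (SE, limma adjusted p = 1.42e-07), and the clock repressors Nr1d1 and Nr1d2 at 7.29 and 9.99 h. Arntl, which encodes BMAL1, peaked at 22.7 h. Of 12 PPAR alpha targets, 5 passed (41.7%), 4 of them with a day peak, and the median fold was 1.31. This share lay near that of the brighter class (41.4%), which held 6 of the 12. Cpt1a, the entry step of mitochondrial fatty acid oxidation, peaked at 9.62 ± 0.25 h (limma adjusted p = 3.46e-10), Vnn1 at 9.23 h (limma adjusted p = 0.00129) and Pdk4 at 23.9 h (limma adjusted p = 1.35e-05). The fitted peaks of Pnpla2, Ppara, Cpt1a and Vnn1 lay less than 3 h apart. Plin2 peaked at 2.8 h, less than 3 h from Pdk4. These differences between peaks were not tested.

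Genes whose 8 group means were most like those of a member are given as a description, by Pearson's r over the 8 times. For Pnpla2 they were Fnip2 (r = 0.99, fold 1.61, peak 9.73 h), Gstt2 (r = 0.98, fold 1.81, peak 8.99 h) and Fnip1 (r = 0.98, fold 1.51, peak 9.4 h), and all 3 passed the 24 h test in limma. For Plin2 they were Isoc2b, Ints1 and Cant1 (r = 0.98, 0.97 and 0.96), with folds of 1.13, 1.14 and 1.09. For Pnpla3 they were E330020D12Rik, Eid2b and Cox18 (r = 0.98, 0.97 and 0.97), with folds of 1.1, 1.15 and 1.14. None of these last 6 passed the 24 h test, with limma adjusted p from 0.0635 to 0.456.

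Markers of other cells that hold droplets were set beside these results. Of 8 adipocyte markers, 1 passed the 24 h test (Car3, fold 1.14, peak 1.99 h, limma adjusted p = 0.0308). Car3 was also the 1 adipocyte marker in the brighter class, and which cells gave its signal was not tested. The mean of the 8 markers in an array lay between -0.03 and 0.05 at CT06, between -0.09 and 0.0025 at CT12 and between -0.0025 and 0.1 at CT18. Of 8 stellate cell markers, 1 passed (Pdgfrb, fold 1.32, peak 2.71 h, limma adjusted p = 1.02e-06), with a fitted peak less than 3 h from that of Plin2. Pdgfrb was highest at CT03 (0.18 ± 0.06, SD, n = 3) and lowest at CT12 (-0.23 ± 0.06), where Plin2 was lowest too. The mean of the stellate list lay between -0.07 and 0.08 at CT06 and between -0.05 and 0.06 at CT12. Plin2 had means of 0.3 and -0.51 at these times. Of 9 hepatocyte markers, 2 passed (22.2%), against 13.8% of all genes. They were Hnf4a (fold 1.21, peak 12.9 h, limma adjusted p = 0.00371) and Fgb (fold 1.12, peak 3.32 h, limma adjusted p = 0.00132). All 9 were in the brighter class, where 41.4% passed with p adjusted in that class alone. Of 4 bile duct markers, 1 passed (Sox9, fold 1.37, peak 22.7 h, limma adjusted p = 0.000687), with its lowest mean of -0.32 ± 0.29 (SD, n = 3) at CT12, where Plin2 was lowest too. The mean of these 4 markers lay between 0.06 and 0.25 at CT00, between -0.1 and 0.02 at CT06 and between -0.22 and -0.08 at CT12, so that the arrays of CT00 and CT12 did not overlap. Other lists also had times without overlap. Hepatocyte means lay between 0.03 and 0.06 at CT12 and between -0.06 and -0.02 at CT18. Stellate means lay between 0.03 and 0.11 at CT00 and between -0.07 and -0.02 at CT21. Endothelial means lay between 0.03 and 0.11 at CT00 and between -0.2 and -0.01 at CT09. The adipocyte and macrophage lists had no such times. In the 6 lists for macrophages, endothelial cells, lymphocytes, neutrophils, red cells and muscle, 0 of 31 markers passed the 24 h test in limma, 3 had an unadjusted p under 0.05, and 1 endothelial marker passed that of the 8 times. The part of other cells in the results was not tested.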

How the data were processed

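Liver RNA of 24 mice, per the labels' protocols each extracted with an RNeasy kit, biotin labelled and hybridised to its own Affymetrix Mouse Gene 1.0 ST array, was analysed. In the labels, 1 passage has 4 mice per time and another 3 biological replicates. The deposited log2 values hold, per probe set, each array minus the median over the 24 arrays (row medians were 0 within 5e-07). The log base was taken as 2. How the authors corrected the background, summarised probes and normalised arrays is not given in the sources used here. Centring removes levels, and a constant added before the logarithm would understate changes of dim genes. The labels give no batches or scan dates.

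Probe sets with 1 symbol in the supplied platform annotation (21780 of 28815) were averaged per gene, which changed none of the members. The planned filter on dim genes needs levels, so the brightness class read from rounding steps was used for that alternative. All genes were fitted with limma 3.58.1 in R 4.3.3: a 24 h cosine and sine, an added 12 h component, equality of the 8 times, and 4 contrasts 12 h apart. Benjamini-Hochberg adjustment over 19935 genes used a threshold of 0.05. Amplitudes, peaks and folds have delta-method SEs. Member pairs and within-time relations were tested by permutation with 100000 resamples. Scripts were tested on simulated data. For arrays, their number limits the precision.

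The members and lists were chosen with earlier results of these data known, so no result is independent evidence of a pattern seen before. The text names all members and the markers called in the 24 h test. From each of 5 pathway lists it names the called genes with the 3 smallest 24 h p. Ppara, Abhd5, Plin1, Plin3, Dgat2 and Hsd17b13 are named whatever their values. So are the 3 genes most like each of the 3 members of largest amplitude. Alternatives were a 23 h period, quantile normalisation, median centring of arrays, 1 probe set per gene, array weights, robust or no moderation, the brighter class only, leaving out each array or time, the replicate number as a block, and, chosen after seeing the data, leaving out the 4 arrays of widest spread.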

Additional observations from a re-analysis of the deposited data

How the results depend on the processing

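Of the member-level results under all alternatives, 2639 kept their side of the threshold and, where one is defined, their direction, 88 no longer passed and 14 newly passed. In 17, none of them called with or without the alternative, the direction turned. As log2 differences, Plin5 in CT12-CT00 ran from -0.102 to 0.0362 when 1 array was left out and turned without CT00 replicate 1 or CT12 replicate 1. Lipe there ran from -0.042 to 0.104 and turned without CT00 replicate 1 or CT12 replicate 3. In CT15-CT03, Plin4 (-0.0175 to 0.121) and Pnpla2 (-0.0589 to 0.146) turned without CT15 replicate 1. Cidec there (-0.126 to 0.0657) turned without CT03 replicate 3, without CT15 replicate 2, with array weights (0.0327) and without the 4 arrays of widest spread (0.0657). In CT18-CT06, Cidec (-0.146 to 0.0759) turned without CT06 replicate 3 or CT18 replicate 1, and Mgll (-0.00952 to 0.133) without CT06 replicate 1. In CT21-CT09, Plin2 turned without the 4 arrays of widest spread (0.00122). The 12 h peak moved by over 3 h for Plin4 without CT21 (amplitude 0.0224) or the 4 arrays of widest spread (0.0432) and for Mgll without CT06 (0.00339). With the brighter class only, where 2609 genes and 4 members were tested, 3 passed the 24 h test, 3 the test of the 8 times, and 5 calls were left in the contrasts, while over all genes 1081 (41.4%), 856 (32.8%), 335 (CT12-CT00, 12.8%), 341 (CT15-CT03, 13.1%), 453 (CT18-CT06, 17.4%) and 352 (CT21-CT09, 13.5%) passed. These counts were lower, and the shares higher, than over all 19935 genes. The 1 member with a 12 h component became 0 without time point CT00, CT06, CT09, CT12, CT15, CT18 or CT21, without moderation, in the brighter class and without the 4 arrays of widest spread, and 2 with array weights. Over all genes, 115 had a 12 h component, against 40 without CT00, 62 without CT09, 27 without CT15, 24 without CT21, 64 after quantile normalisation, 655 with array weights, 50 without moderation and 20 without the 4 arrays of widest spread. Array weights gave 4900 genes over the 8 times (2167 without weights), 1388 in CT12-CT00 (690) and 1211 in CT21-CT09 (709). Without the 4 arrays of widest spread, 567 passed in CT18-CT06 (925) and 402 in CT21-CT09 (709). In each of these cases the cause was not tested.

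Leaving out 1 array at a time gave 5 to 6 members in the 24 h test, 4 to 7 over the 8 times, 0 to 1 with a 12 h component, 8 to 11 contrast calls, 4 to 6 pairs and 0 to 1 within-time relations. Over all genes it gave 2452 to 2874 in the 24 h test, 1824 to 2562 over the 8 times, 47 to 188 with a 12 h component, 400 to 739 in CT12-CT00, 535 to 1012 in CT15-CT03, 475 to 1032 in CT18-CT06 and 420 to 785 in CT21-CT09. The lowest of these contrast counts came without CT00 replicate 1, CT03 replicate 1, CT18 replicate 2 and CT21 replicate 3. The 12 h count was lowest without CT15 replicate 2 and highest without CT15 replicate 1. Leaving out a time gave no combined count of contrasts, and the 23 h period was used in the 24 h fit alone.

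The replicate numbers are shared by the 8 groups. Deviations from the group means of arrays with the same number correlated from -0.4 to 0.5 (median 0.11), over 0.1 in 45 of 84 pairs, and 14 of 24 arrays were nearest to one of their own number, where 7 of 21 candidates each would give 8 for unrelated numbers. The labels tie the numbers to no shared litter, batch or day, so the numbers were not taken to pair the livers. Whether they mark something shared was not tested. With the replicate block, 6 members passed the 24 h test, 6 the test of the 8 times, 1 had a 12 h component, 10 contrast calls and 5 pairs were found, and 0 within-time relations. Over all genes the block gave higher counts: 2984 in the 24 h test (2758 without it), 2664 over the 8 times (2167) and 1148 in CT18-CT06 (925). The permutation adjusted p of Pnpla2 minus G0s2 was 4e-05 with the block and 0.000705 without it. The adjusted p of G0s2 was 0.153 in the blocked 24 h fit and 0.0934 over the 8 times (limma).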

Other observations

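G0s2 had its lowest array under replicate number 3 at 6 of the 8 times and under number 2 at the other two. The numbers were not taken to pair the livers.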
